A study of Mus musculus with 6 samples.

Results

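Wnt ligands, their receptors, their inhibitors and the proteins that carry the signal to the nucleus were described in sorted cells of the mouse embryo. The 50 Wnt genes were listed by name and role, with earlier results of these data known, and 49 of them had a probe set of 1 gene among the 19937 genes measured. The 49 were 15 ligands, 10 Frizzled receptors, 4 co-receptors, 7 secreted inhibitors, 4 R-spondin receptors and ligases, 5 cytoplasmic proteins and 4 nuclear proteins. The nuclear effector Tcf7 was not analysed here. The cells came from CD1 embryos at embryonic day 11.5 and from their AGM region (aorta, gonad and mesonephros), in which the first definitive haematopoietic stem cells bud from the dorsal aorta. In the sort, CD31 had to be present and CD45 and Ter119 absent, and the cells were then divided by surface c-kit, with 3 arrays for each population (c-kit-positive, c-kit-negative), numbered here as the labels number the replicates. The labels name no genetic change or treatment and call the samples time T0. Replicates are labelled biological, with no word on whether embryos were pooled, so p-values reflect the spread between these arrays alone.

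Wnt proteins are secreted, lipid-modified ligands that bind a Frizzled receptor together with a co-receptor, Lrp5 or Lrp6. Binding stops the Axin and Apc complex from marking beta-catenin for destruction, and beta-catenin then enters the nucleus and works with the TCF and LEF factors on target genes. Beta-catenin has a separate place at cell junctions, where it is bound by cadherins. In blood vessels the receptor Fzd4 carries signals of Norrin and of Wnt ligands, and beta-catenin activity in the AGM region is known to be needed for stem cells to emerge.

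All values are log2 values from the authors' RMA, so 1 unit is a doubling, and they lay between 1.22 and 13.7 with array medians of 5.42 to 5.52. Kit (probe set 10522530), on whose protein the populations were divided, was at 9.53 to 9.59 in c-kit-positive and 8.19 to 8.27 in c-kit-negative cells. The sort itself sets this difference, so it checks the labels only. Pecam1, which encodes CD31, was at 8.94 to 9.23 in c-kit-positive and 10.0 in all 3 samples of c-kit-negative cells. Ptprc, which encodes CD45, was at 8.37 to 8.60 in c-kit-positive and 8.21 to 9.40 in c-kit-negative cells, although the sort selected against its protein. No detection calls came with the values, so no gene is called absent.

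Some receptors, secreted inhibitors and TCF factors fell in c-kit-positive cells. No ligand passed the test, but 15 ligands are too few to set this apart from the share called over all genes. Of the 49 measured genes 8 fell and 1 rose in limma's test, with a threshold of 0.05 on the p-value after Benjamini-Hochberg adjustment over all 19937 genes. The 8 were Fzd4, Fzd3, Lrp5, Sfrp1, Dkk2, Ctnnb1, Tcf7l2 and Tcf7l1, and the gene that rose was Lgr4. Called genes thus made up 18.4% of the Wnt genes, against 7.41% of all genes. Falls made up 16.3% of the Wnt genes, against 4.70% of all genes, and rises 2.04%, against 2.71%. The median difference, c-kit-positive minus c-kit-negative, was -0.03 over the Wnt genes and 0.07 over all genes. The 3 values of the c-kit-positive cells all lay beyond the 3 of the c-kit-negative cells for 16 of the 49, or 32.7%, against 26.8% of all genes. Of the 16, 4 lay above and 12 below the c-kit-negative values, and over all genes 16.2% lay above and 10.6% below. With 1 array left out the falls numbered 6 or 7. The count of rises was 0 without c-kit-positive array 3 or c-kit-negative array 1 or 2.

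**Figure D1:**
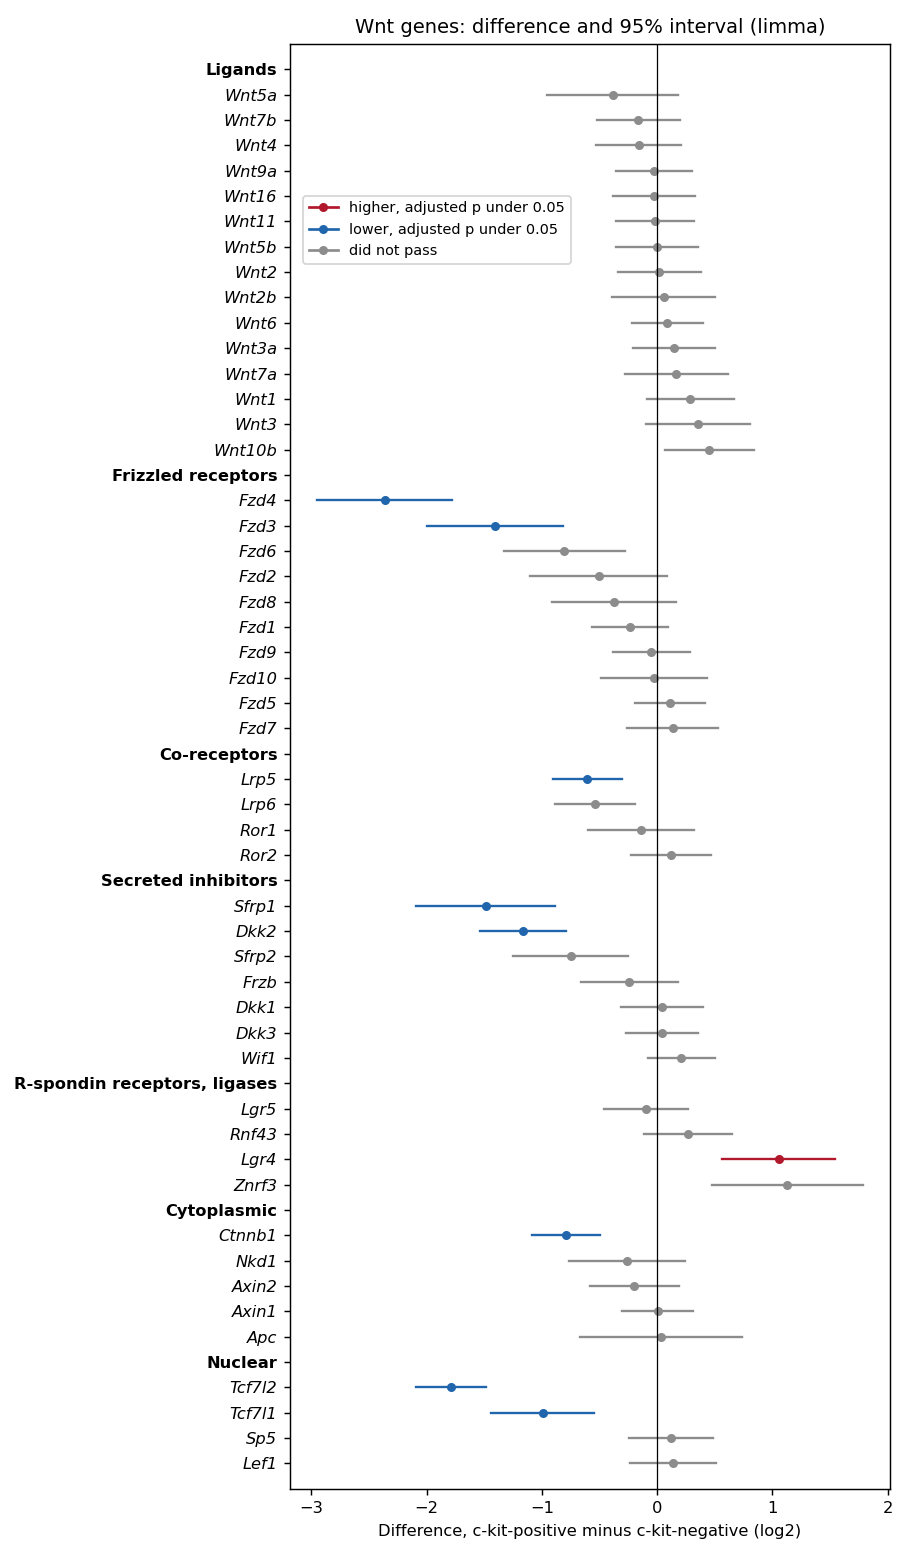
The difference in log2 value, c-kit-positive minus c-kit-negative, for the 49 measured Wnt genes, with its 95% interval from limma, grouped by role. Fzd4 and Tcf7l2 stand farthest to the left at -2.36 and -1.79, the 15 ligands lie between -0.38 and 0.45, and Lgr4 is the gene marked as higher.

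Fzd4 and Tcf7l2, which fell most, and Lgr4, which rose, are shown by the 250 bases before their annotated start, since a shared motif there would be visible in the letters. Sequences are RefSeq's on GRCm38.p6, written 5′ to 3′ on the gene's strand, which is plus for all 3, with GC boxes (GGGCGG on either strand) in capitals. For Tcf7l2 the window is that of the more upstream of its 2 annotated starts.
Fzd4, chr7:89404116-89404365: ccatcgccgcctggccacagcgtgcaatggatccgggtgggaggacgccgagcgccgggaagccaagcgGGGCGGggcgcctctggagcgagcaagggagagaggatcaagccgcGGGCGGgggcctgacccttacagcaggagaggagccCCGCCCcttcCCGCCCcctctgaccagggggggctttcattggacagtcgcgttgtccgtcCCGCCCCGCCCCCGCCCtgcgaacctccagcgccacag
Tcf7l2, chr19:55741560-55741809: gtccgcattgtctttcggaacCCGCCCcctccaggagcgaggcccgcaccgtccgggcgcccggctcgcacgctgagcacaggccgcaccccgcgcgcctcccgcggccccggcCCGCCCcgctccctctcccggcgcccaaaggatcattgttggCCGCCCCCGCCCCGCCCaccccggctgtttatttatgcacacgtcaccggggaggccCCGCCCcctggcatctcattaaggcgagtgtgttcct
Lgr4, chr2:109917397-109917646: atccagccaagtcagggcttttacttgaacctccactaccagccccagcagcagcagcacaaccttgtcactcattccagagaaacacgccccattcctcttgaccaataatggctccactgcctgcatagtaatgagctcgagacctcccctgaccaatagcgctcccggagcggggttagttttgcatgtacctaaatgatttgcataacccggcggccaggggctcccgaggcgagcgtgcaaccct
The windows of Fzd4 and Tcf7l2 held 7 and 6 GC boxes, counting overlapping ones, and both had a GC content of 72.8%. The window of Lgr4 held 0 GC boxes and had a GC content of 55.6%, where the median over all promoters was 52.4%. All 5 genes that fell and had promoter entries held a GC box in at least 1 window. Lgr4 was the 1 gene that rose, so whether the contrast follows the direction of change cannot be told. The downstream window of Tcf7l2 also held 0 GC boxes, at a GC content of 40.8%. Dkk2, which fell, had 2 GC boxes and the same GC content as Lgr4. Of the 9 called genes 6 had promoter entries, with 8 windows between them. The TCF and LEF core CTTTGAT stood in 0 of the 8 windows and in 3.21% of all 32851 promoters of the same length. The ETS motif CCGGAAG stood in 0 of the 8, against 6.91% of all promoters, and the GATA motif AGATAA in 1 of the 8, the downstream window of Tcf7l2, against 9.99%. For motifs this rare, 8 windows are too few to show a lack of them. At least 1 GC box stood in 6 of the 8 windows, against 32.7% of all promoters. These 6 windows had GC contents of 55.6% to 74.8%, above the median, and the promoters compared were not matched for GC content. All motifs were searched on both strands, and 2 of the 8 windows, those of Ctnnb1, overlap.

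None of the 15 ligands passed limma's threshold, which 7.41% of all genes passed, and 15 genes are too few to set 0 apart from that share. They were Wnt1, Wnt2, Wnt2b, Wnt3, Wnt3a, Wnt4, Wnt5a, Wnt5b, Wnt6, Wnt7a, Wnt7b, Wnt9a, Wnt10b, Wnt11 and Wnt16. Their differences ran from -0.38 for Wnt5a to 0.45 for Wnt10b, with a median of 0.02, and 8 were above 0 and 7 below. Wnt10b (probe set 10432267), a ligand of the beta-catenin branch, had the smallest p. It was at 6.04, 5.76 and 5.68 in c-kit-positive and 5.14, 5.57 and 5.41 in c-kit-negative cells. The populations did not overlap, but the difference of 0.45 ± 0.17 (SE) did not pass (unadjusted p = 0.0256, adjusted p = 0.162, limma), and it was the 1 ligand with an unadjusted p under 0.05. For all 15 ligands the 95% interval of the difference lay within a 2-fold change either way. Most of the 15 were dim, near or below the array medians, and array background can compress differences of dim genes. The intervals therefore do not bound the change in the transcripts themselves. Wnt5a, best known for signals that do not use beta-catenin, was at 3.87 to 4.93 in c-kit-positive and 4.73 to 4.94 in c-kit-negative cells, so the populations overlapped. Wnt4, a ligand of kidney and gonad development, was the member with 2 probe sets, and they differed in sign, at -0.16 and 0.16 (adjusted p = 0.628 for both over all probe sets, limma).

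Of the 10 Frizzled receptors 2 fell, or 20%, against 4.70% of all genes, and 8 did not pass. With 10 genes the shares cannot be compared closely. Fzd4 (probe set 10554808), the receptor of Norrin in vessels, was at 4.35, 5.09 and 5.29 in c-kit-positive and 7.46, 6.97 and 7.39 in c-kit-negative cells. The highest c-kit-positive array stood well below the lowest c-kit-negative array. Fzd4 was 5.14-fold lower (adjusted p = 0.00109, limma), with a difference of -2.36 ± 0.26 (SE). In bulk samples such as these, fewer cells that make a transcript and less of it per cell cannot be told apart. Fzd3 (probe set 10420846), a receptor known from axon guidance and planar cell polarity, was at 5.87, 5.76 and 5.63 in c-kit-positive and 6.88, 6.79 and 7.80 in c-kit-negative cells. It was 2.65-fold lower (adjusted p = 0.0140, limma), and c-kit-negative array 3 stood apart above the other 2. Without c-kit-positive array 3 the adjusted p of Fzd3 was 0.0526 (limma).

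Fzd6, which acts in planar polarity of the skin, came next among the Frizzleds. It was at 5.99, 6.21 and 5.92 in c-kit-positive and 6.75, 7.35 and 6.44 in c-kit-negative cells, with no overlap, and its difference of -0.81 ± 0.23 (SE) did not pass (adjusted p = 0.0771, limma). It passed without c-kit-negative array 3 (adjusted p = 0.0445, limma). Fzd2 was at 5.10, 5.45 and 6.19 in c-kit-positive and 6.08, 5.94 and 6.23 in c-kit-negative cells, and passed without c-kit-positive array 3 (adjusted p = 0.0464, limma) but not with it (0.316). The remaining 6, Fzd1, Fzd5, Fzd7, Fzd8, Fzd9 and Fzd10, differed by -0.38 to 0.14. Fzd1 was lower in each c-kit-positive sample than in any c-kit-negative sample, by -0.23 ± 0.15 (SE, adjusted p = 0.413, limma).

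Among the co-receptors, Lrp5 (probe set 10464504) was at 6.73, 6.70 and 6.93 in c-kit-positive and 7.38, 7.37 and 7.43 in c-kit-negative cells. The spread within each population was small and the ranges were apart, at 1.52-fold lower (adjusted p = 0.0286, limma). Lrp5 did not pass without c-kit-positive array 1 or 2 or without any of the 3 c-kit-negative arrays, at adjusted p of 0.0765 to 0.0899, nor with the trend and robust prior (0.0601, limma). Its relative Lrp6 was at 7.62, 7.27 and 7.53 in c-kit-positive and 8.04, 7.86 and 8.14 in c-kit-negative cells, also with no overlap. The difference of Lrp6, -0.54 ± 0.15 (SE), had an interval of -0.89 to -0.19 and did not pass (adjusted p = 0.0746, limma). Ror1 and Ror2, receptor kinases for Wnt5a, differed by -0.14 and 0.12, with overlapping populations.

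Of the 7 secreted inhibitors 2 fell, or 28.6%, against 4.70% of all genes, again from few genes. Sfrp1 (probe set 10570957), a decoy that binds Wnt proteins outside the cell, was at 5.25, 5.38 and 6.29 in c-kit-positive and 6.98, 7.14 and 7.26 in c-kit-negative cells. It was 2.80-fold lower (adjusted p = 0.0121, limma), and c-kit-positive array 3 stood nearest to the c-kit-negative cells. Dkk2 (probe set 10496125), which binds Lrp5 and Lrp6, was at 5.48, 5.45 and 5.19 in c-kit-positive and 6.27, 6.67 and 6.66 in c-kit-negative cells, a 2.24-fold fall (adjusted p = 0.00400, limma). Sfrp2 was at 6.27 to 6.88 in c-kit-positive and 6.92 to 7.55 in c-kit-negative cells, just short of overlap, and its difference of -0.75 ± 0.22 (SE) did not pass (adjusted p = 0.0817, limma). Dkk1, Dkk3, Frzb and Wif1 differed by -0.24 to 0.21. Wif1, another Wnt-binding inhibitor, was higher in each c-kit-positive sample than in any c-kit-negative sample, but by 0.21 ± 0.13 (SE, adjusted p = 0.401, limma).

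R-spondins strengthen a Wnt signal through Lgr receptors, by removing the ligases Rnf43 and Znrf3 that take Frizzleds off the cell surface. Lgr4 (probe set 10474419) was at 7.09, 7.55 and 7.54 in c-kit-positive and 5.98, 6.34 and 6.69 in c-kit-negative cells, a 2.08-fold rise with no overlap (difference 1.06 ± 0.21, SE, adjusted p = 0.0218, limma). Lgr4 did not pass without c-kit-positive array 2 or 3 or c-kit-negative array 1 or 2, at adjusted p of 0.0644 to 0.0734 (limma). Znrf3 (probe set 10383982) was at 7.06, 6.02 and 6.90 in c-kit-positive and 5.19, 5.83 and 5.58 in c-kit-negative cells. Its difference of 1.13 ± 0.29 (SE) was the largest positive difference of the 49, and it lay just outside the threshold (adjusted p = 0.0516, limma). C-kit-positive array 2 lay close to the c-kit-negative cells, and without it Znrf3 passed (adjusted p = 0.0101, limma). Lgr5, a stem cell marker of gut epithelium, and Rnf43 differed by -0.10 and 0.27, with overlapping populations.

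**Figure D2:**
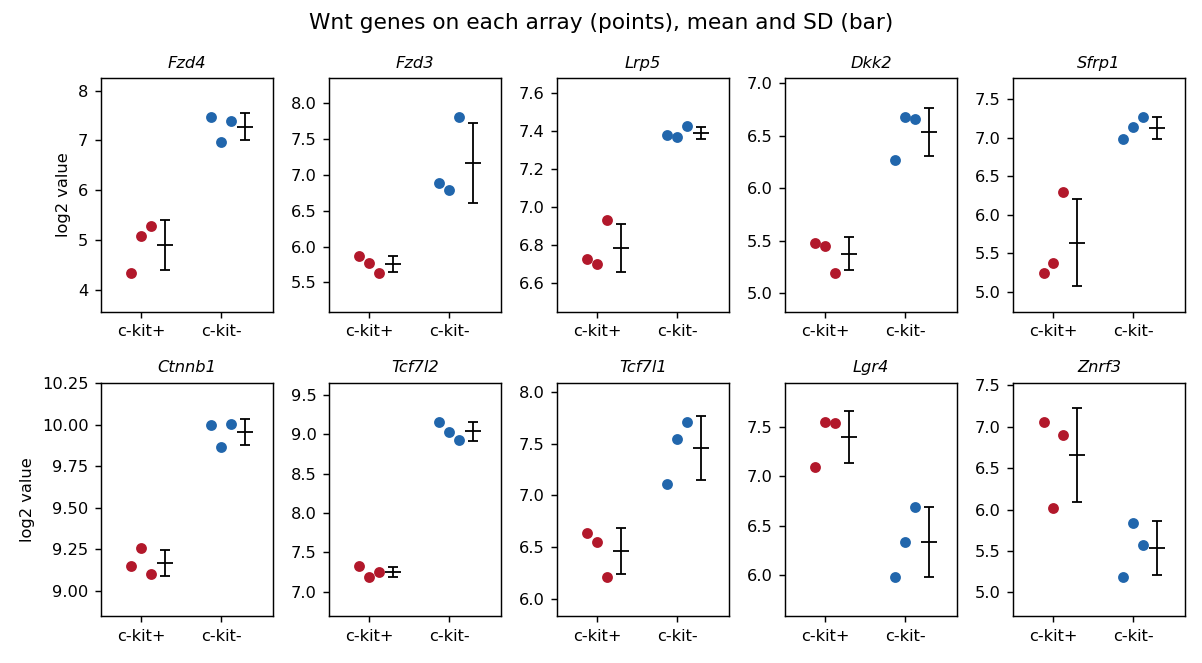
Log2 values of the 9 called Wnt genes and of Znrf3 on each of the 6 arrays (points), with mean and SD beside them, c-kit-positive left of c-kit-negative and a separate axis for each gene. The populations do not overlap for any of the 10 genes. Sfrp1, Znrf3 and Fzd4 in c-kit-positive and Fzd3 in c-kit-negative cells each have 1 array apart from the other 2.

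Beta-catenin, Ctnnb1 (probe set 10590325), was at 9.15, 9.25 and 9.10 in c-kit-positive and 10.00, 9.87 and 10.00 in c-kit-negative cells. The samples of each population lay close together, and the gene was 1.73-fold lower (difference -0.79 ± 0.13, SE, adjusted p = 0.00821, limma). Of the cadherins that beta-catenin binds at junctions, 2 are on the marker lists, and both were picked after their values were seen. The endothelial Cdh5 was at 5.91 to 7.02 in c-kit-positive and 11.0 to 11.3 in c-kit-negative cells. Cdh1, from the list of mesonephric and gonadal epithelium, was at 7.78 to 7.80 in c-kit-positive and 6.48 to 6.85 in c-kit-negative cells. This was a 2.22-fold rise (adjusted p = 0.00216, limma), and of the 12 markers on that list 2 rose and 1 fell. The scaffolds of the destruction complex did not pass. Axin1 was at 6.86 to 7.13 in c-kit-positive and 7.01 to 7.03 in c-kit-negative cells. Apc was at 6.87 to 8.07 in c-kit-positive and 7.10 to 7.82 in c-kit-negative cells, a wide spread that gave its difference an interval of -0.67 to 0.74.

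Axin2 and Nkd1 are feedback inhibitors that beta-catenin and the TCF factors switch on, and are often read as a measure of the signal. Axin2 was at 6.57 to 7.03 in c-kit-positive and 6.87 to 7.22 in c-kit-negative cells, with a difference of -0.20 and an interval of -0.59 to 0.19 (adjusted p = 0.569, limma). Nkd1 was at 5.58 to 6.24 in c-kit-positive and 5.89 to 6.46 in c-kit-negative cells, with an interval of -0.77 to 0.24. Sp5, a transcription factor that is a direct target, was at 5.17 to 5.43 in c-kit-positive and 4.91 to 5.34 in c-kit-negative cells, with an interval of -0.24 to 0.49. For these 3 genes the populations overlapped, and the intervals left out a 2-fold change in either direction. Sp5 lay near or below the array medians, where array background can compress differences.

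**Figure D3:**
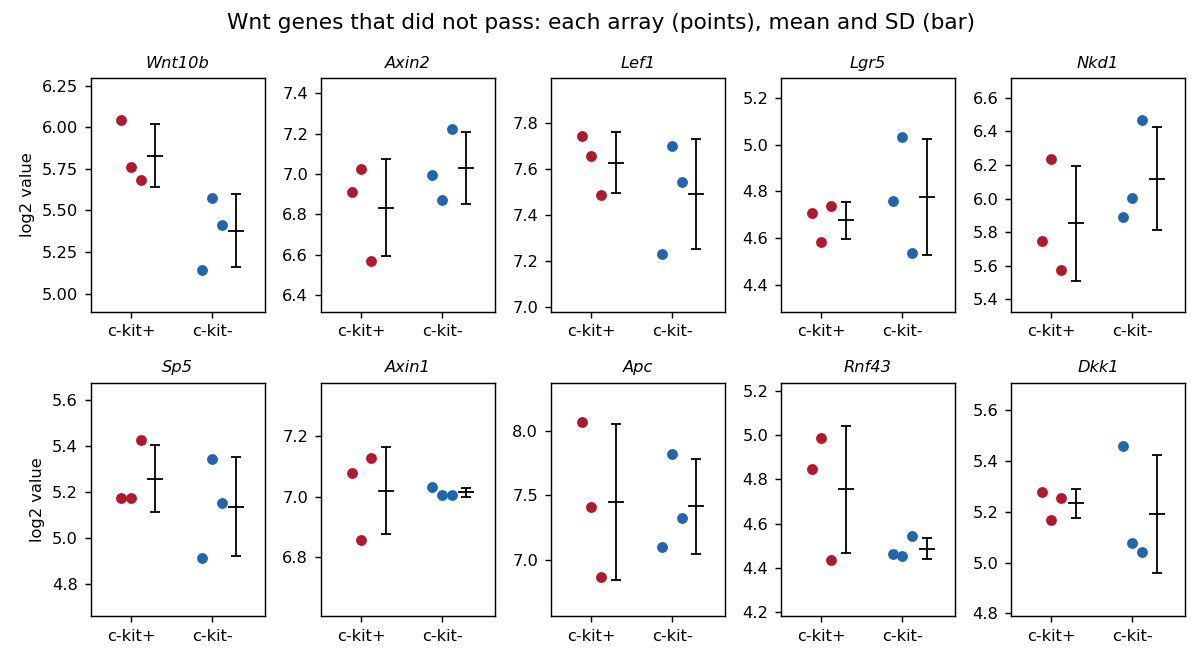
Log2 values of 10 Wnt genes that did not pass on each of the 6 arrays (points), with mean and SD beside them, c-kit-positive left of c-kit-negative and a separate axis for each gene. Wnt10b alone of the 10 has populations that do not overlap, and Apc varies by more within each population than its means differ.

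Of the 4 measured nuclear proteins 2 fell, or 50%, against 4.70% of all genes, and 4 genes are too few for comparing shares. Tcf7l2 (probe set 10464084), a TCF factor through which beta-catenin activates targets, was at 7.32, 7.19 and 7.25 in c-kit-positive and 9.16, 9.02 and 8.92 in c-kit-negative cells. It was 3.45-fold lower, by -1.79 ± 0.13 on the log2 scale (SE), with the smallest p of the 49 genes (adjusted p = 0.000150, limma). Tcf7l1 (probe set 10545458), known mainly as a repressor of the family, was at 6.64, 6.54 and 6.21 in c-kit-positive and 7.11, 7.55 and 7.71 in c-kit-negative cells, a 1.99-fold fall (adjusted p = 0.0190, limma). Tcf7l1 did not pass without c-kit-positive array 3 or c-kit-negative array 2 or 3, at adjusted p of 0.0615 to 0.0654 (limma). Lef1, an activator of the same family, was at 7.74, 7.66 and 7.49 in c-kit-positive and 7.23, 7.70 and 7.55 in c-kit-negative cells. The populations of Lef1 overlapped, and its difference of 0.14 ± 0.16 (SE) had an interval of -0.24 to 0.51 (adjusted p = 0.695, limma).

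Of the 40 Wnt genes that did not pass, 36 had a 95% interval within a 2-fold change either way. This is a share like that over all genes, at 16571 of the 18460 that did not pass. The other 4 Wnt genes were Fzd2, Fzd6, Sfrp2 and Znrf3, for which a larger change is within the interval. The 36 include the 15 ligands, most of them dim, so the limit that array background sets on their intervals holds here too.

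Genes of the pathway outside the 50 were followed in 9 lists of 91 genes, of which 89 were measured, and 9 fell and 2 rose, or 12.4% called against 7.41% of all genes. Falls made up 10.1%, against 4.70% of all genes, and 3 of the 11 called genes were in the list of 4 described next. Of 4 genes that work with Fzd4 or as Wnt7 receptors in vessels 3 fell, on arrays where all 14 endothelial markers fell as well. Tspan12, a tetraspanin that joins Fzd4 in Norrin signalling, was at 6.71, 5.96 and 5.99 in c-kit-positive and 7.64, 7.75 and 7.93 in c-kit-negative cells, a 2.93-fold fall (adjusted p = 0.00372, limma). Adgra2 (GPR124) and Reck, which together let endothelium respond to Wnt7 ligands, were 2.62-fold and 2.42-fold lower (adjusted p = 0.00185 and 0.00865, limma). The ligand Norrin, Ndp, was at 4.02 to 4.50 in c-kit-positive and 4.18 to 4.32 in c-kit-negative cells, and Wnt7a and Wnt7b overlapped between populations as well.

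Of 3 genes of Wnt secretion 1 rose, where 2.71% of all genes rose, and 3 genes are too few for comparing shares. Porcn, the acyltransferase that attaches the lipid to Wnt proteins, rose 2.59-fold (adjusted p = 0.00442, limma). It was at 8.43, 7.84 and 7.81 in c-kit-positive and 6.54, 6.86 and 6.56 in c-kit-negative cells, far apart. Wls, which carries Wnt proteins to the cell surface and was added after its values were seen, was at 5.67, 6.48 and 5.41 in c-kit-positive and 6.97, 6.38 and 6.94 in c-kit-negative cells. The populations of Wls overlapped, and its difference of -0.91 ± 0.29 (SE) did not pass (adjusted p = 0.106, limma), though it did without c-kit-positive array 2 (0.0231). Of the R-spondins and Lgr6 (5 genes) 1 fell, or 20%, against 4.70% of all genes. This was Rspo3, known from vessel development. It was at 4.83, 4.51 and 4.28 in c-kit-positive and 5.59, 6.01 and 5.83 in c-kit-negative cells, a 2.42-fold fall (adjusted p = 0.00457, limma), while its receptor Lgr4 rose.

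Of 15 other inhibitors 1 fell, or 6.67%, near the 4.70% of all genes that fell. It was Igfbp4, a binding protein of insulin-like growth factors that can also block Frizzled and Lrp6, at 2.32-fold lower (adjusted p = 0.00160, limma). Of 16 cofactors of beta-catenin and Groucho corepressors 1 rose and 1 fell, or 6.25% each, where 2.71% of all genes rose and 4.70% fell. Both are Groucho proteins, which bind TCF factors in place of beta-catenin. The cofactor Bcl9, added after its values were seen, was lower by -0.94 ± 0.24 (SE), just outside the threshold (adjusted p = 0.0508, limma). The populations of Bcl9 did not overlap. Bcl9 passed in 6 of 8 alternative fits on all arrays and in 1 of 6 with 1 array left out. Tle4 was at 7.54, 7.80 and 7.30 in c-kit-positive and 6.74, 6.57 and 6.94 in c-kit-negative cells, and Tle3 at 6.83, 6.83 and 7.06 in c-kit-positive and 7.48, 7.74 and 7.64 in c-kit-negative cells. Tle4 was 1.73-fold higher (adjusted p = 0.0286, limma) and Tle3 1.64-fold lower (adjusted p = 0.0199, limma). Tle4 did not pass without c-kit-positive array 1 or 2 or c-kit-negative array 1 or 2, at adjusted p of 0.0805 to 0.0943, nor Tle3 without c-kit-positive array 1 or 2 or c-kit-negative array 2 or 3, at 0.0636 to 0.0698 (limma).

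Of 19 genes of the Dishevelled and destruction complex list 1 fell, or 5.26%, near the 4.70% of all genes that fell. It was Dvl3, a Dishevelled that relays the signal from Frizzled, at 1.60-fold lower (adjusted p = 0.0204, limma). Of 13 genes of planar polarity and the Wnt5a branch 1 fell, or 7.69%, again near that share. It was Daam1, a formin bound by Dishevelled, at 1.57-fold lower (adjusted p = 0.0357, limma). Dvl3 passed without c-kit-positive array 3 but in none of the other 5 fits with 1 array left out, at adjusted p of up to 0.0680, and Daam1 without c-kit-positive array 2 but in none of the other 5, at up to 0.111 (limma). Of 10 further target genes 1 fell, or 10%, against 4.70% of all genes, and 10 genes are few for comparing shares. This was Ccnd1, which encodes cyclin D1, and Myc did not pass. Ccnd1 was at 6.81, 6.32 and 6.89 in c-kit-positive and 8.65, 8.52 and 9.01 in c-kit-negative cells, a 4.16-fold fall (adjusted p = 0.000611, limma). None of the 4 ligands outside the 50 passed, and Wnt8b had the smallest p, with a difference of 0.31 ± 0.17 (SE, adjusted p = 0.356, limma).

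**Figure D4:**
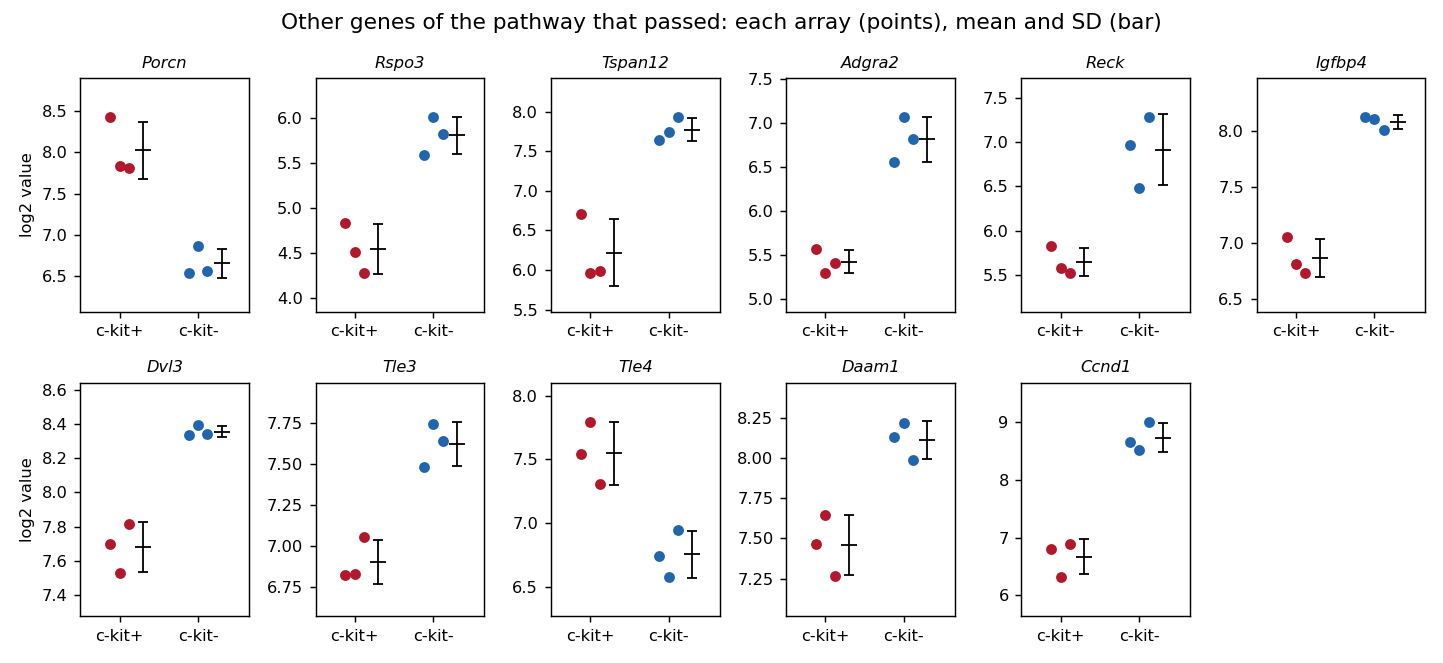
Log2 values of the 11 other pathway genes that passed, on each of the 6 arrays (points), with mean and SD beside them, c-kit-positive left of c-kit-negative and a separate axis for each gene. Porcn and Tle4 are higher in c-kit-positive cells and the other 9 are lower, with no overlap between the populations.

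Markers of several cell types also differed between the 2 populations on the same arrays. All 14 endothelial markers fell, and the mean of the list was 5.93 to 6.18 in c-kit-positive and 8.67 to 8.74 in c-kit-negative cells. Kdr, the main receptor of vascular endothelial growth factor, was 29.3-fold lower and Tek 10.9-fold lower. Of 12 markers of mesenchyme and smooth muscle 8 fell, led by Prrx1 and Pdgfra, with list means of 5.17 to 5.28 in c-kit-positive and 6.42 to 6.91 in c-kit-negative cells. Of 12 macrophage markers 3 fell, led by Csf1r and Ctss, with list means of 5.72 to 5.93 in c-kit-positive and 6.24 to 7.36 in c-kit-negative cells, the highest on c-kit-negative array 1.

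Germ cell markers, a list that includes Kit itself, ran the other way. Of 13, 11 rose, led by Sycp3 and Dazl, with list means of 8.19 to 8.39 in c-kit-positive and 6.88 to 6.99 in c-kit-negative cells. The 11 and the means count Kit, whose difference the sort itself sets. Of 11 measured haematopoietic progenitor markers 4 rose, led by Myb and Hlf, with list means of 7.31 to 7.35 in c-kit-positive and 6.82 to 6.93 in c-kit-negative cells. Among 12 markers of mesonephric and gonadal epithelium, 2 rose and 1 fell, and Osr1, lower, and Cdh1, higher, had the smallest p, with list means of 6.04 to 6.21 in c-kit-positive and 5.78 to 6.08 in c-kit-negative cells. None of the 50 Wnt genes is on a marker list, and the part of these cell types in the differences of the Wnt genes was not tested.

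**Figure D5:**
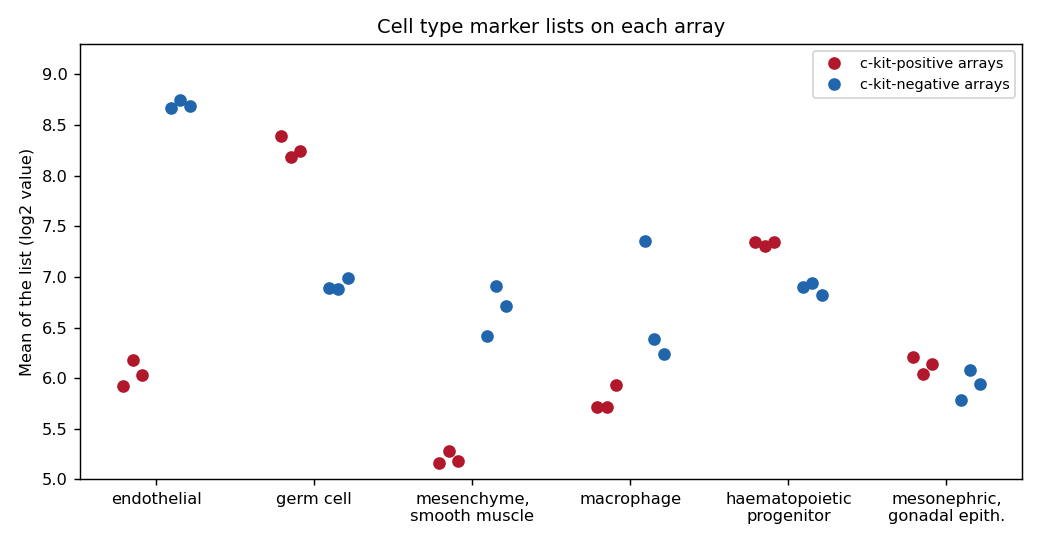
Mean log2 value of each cell type marker list on each of the 6 arrays (points), c-kit-positive left of c-kit-negative. Endothelial, mesenchymal and macrophage lists are lower on all c-kit-positive arrays, germ cell and haematopoietic progenitor lists are higher, and the epithelial list overlaps.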

How the data were processed

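Total RNA of the 6 sorted samples (5 ng each, per the labels' protocols) was amplified with a whole-transcript kit and labelled with biotin, and each sample was measured on 1 array. Amplification and array background can compress differences, above all of dim genes. The deposited values are log2 values that the authors made with RMA, per the submitters' processing notes. No version or setting is given in the sources used here.

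The platform annotation gave 1 symbol to 21640 of 34760 probe sets, and 21553 of these matched the RefSeq gene table by Entrez identifier. For the 954 genes with several probe sets, the probe set of highest mean over 6 arrays was used. A two-sided test without filter or block was fitted by lmFit and eBayes of limma 3.58.1 (R 4.3.3) over 19937 genes, with Benjamini-Hochberg adjustment and a threshold of 0.05, after the test was checked on simulated arrays. An exact permutation test of 3 against 3 cannot give a p below 0.1, so none was run. The number of arrays limits the precision.

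All 50 genes are accounted for. Those that passed, or the 1 of smallest p in a role, are given on each array, and some others of interest were added after their values were seen. From other pathway lists genes that passed are named, with some that did not, and from marker lists the 2 of smallest p. The members and lists were chosen with earlier results of these data known. Alternative fits used weights for arrays, a block for the replicate number, a robust prior with a trend, the mean over a gene's probe sets, quantile normalization or median centring, dropped the 30 or 50 percent of genes with the lowest means, or dropped each array in turn. Figures were drawn with matplotlib 3.10.9.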

Additional observations from a re-analysis of the deposited data

How the results depend on the processing

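The 8 falls stayed between 6 and 7 with 1 array left out, and no setting moved them by over 1.5 times. The 9 called genes kept their sign in every fit, and lost the call in 13 of 54 fits with 1 array left out and in 2 of 72 other fits. The rises were 2 in place of 1, through Znrf3, without the 30 or 50 percent of lowest genes, with the mean over probe sets and with the trend and robust prior, and so were the called R-spondin receptors and ligases. With 1 array left out both counts were 0 to 1. Called co-receptors were 0 with the trend and robust prior (Lrp5, adjusted p = 0.0601, limma) and 0 to 1 with 1 array left out, and called nuclear proteins numbered 1 to 2 there. Other pathway genes higher numbered 1 to 2 with 1 array left out. Where not said, the cause was not tested. Among genes that did not pass, signs turned for Wnt2 with quantile normalization (-0.017), for Wnt5b with quantile normalization (0.023) and array weights (0.014), and for Axin1 with array weights (-0.014). With 1 array left out the differences that changed sign ran from -0.12 to 0.11 for Wnt2, -0.12 to 0.25 for Wnt2b, -0.091 to 0.14 for Wnt5b, -0.038 to 0.31 for Wnt7a, -0.11 to 0.052 for Wnt9a, -0.12 to 0.042 for Wnt11, -0.12 to 0.071 for Wnt16, -0.12 to 0.065 for Fzd9, -0.15 to 0.19 for Fzd10, -0.33 to 0.065 for Ror1, -0.034 to 0.17 for Dkk1, -0.016 to 0.099 for Dkk3, -0.22 to 0.028 for Lgr5, -0.048 to 0.088 for Axin1, -0.28 to 0.32 for Apc.

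With the replicate block, called co-receptors numbered 0 (Lrp5, adjusted p = 0.0600, limma) and other pathway genes higher 1, since Tle4 did not pass (0.0651). Fzd6 and Sfrp2 passed under the block (0.0423 and 0.0338, limma). Same-numbered arrays of the 2 populations did not deviate together from their population means (correlations over genes of 0.00071, 0.024 and 0.059), so the numbers were not taken as pairs.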
